A study of Mus musculus with 14 samples.

Results

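The 9 genes described here are the transcription factors of the Hedgehog pathway (*Gli1*, *Gli2* and *Gli3*), the Gli-similar factors (*Glis1*, *Glis2* and *Glis3*) and 3 membrane proteins that handle the Hedgehog signal (*Ptch1*, *Smo* and *Hhip*). They were taken by symbol from a table of read counts for 55487 genes, and all 9 passed the minimum on low counts. The list was selected on measured values: it was drawn up with earlier fits of the same comparisons in view, in which *Glis1* was already lower in both diabetic models. The fold changes and adjusted *P* values of these genes are therefore a description of the libraries and not a test of the list.

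Hedgehog ligands bind the receptor Patched1, encoded by *Ptch1*, and thereby release Smoothened, encoded by *Smo*, from inhibition at the primary cilium. Smoothened then controls the activity of the zinc finger proteins Gli1, Gli2 and Gli3. Of these, Gli3 acts largely as a repressor and Gli2 as the main activator, while *Gli1*, *Ptch1* and *Hhip* are themselves transcribed in response to the signal. The Glis proteins share the Gli-type zinc finger domain but are not established mediators of Hedgehog signaling. In the intervertebral disc (IVD), Sonic hedgehog from the notochord patterns the sclerotome before birth, and Indian hedgehog acts in end-plate and growth-plate cartilage.

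RNA-seq was performed on caudal IVDs of male mice, with 5 discs pooled per mouse and a library per mouse. The db/db group (*n* = 3) was homozygous for a mutation of the leptin receptor gene *Lepr* that is present in all cells, and the db/+ group (*n* = 3) comprised heterozygous littermates, both about 3 months old. The STZ-HFD group (*n* = 4, C57BL/6J) ate a high-fat diet for 4 to 6 weeks from the age of 12 weeks, received a single dose of 100 mg/kg streptozotocin (STZ), which injures pancreatic β-cells, and stayed on the diet for another 12 weeks. The Con+Veh group (*n* = 4, C57BL/6J) received chow and citrate vehicle over the same period. The 2 cohorts differ in age, genotype and handling, which cannot be told apart between db/+ and Con+Veh. Nothing in the labels says which mice shared a cage or litter, so *P* values measure the spread between mice of these groups only.

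Libraries held between 16076908 and 58943169 gene counts, of which 28.1% to 60.3% fell on ribosomal RNA genes. STZ-HFD replicate 1 stood apart: it was the shallowest library and had a count in 76.8% of all genes, against 45.4% to 53.9% in the other 13 libraries. The fit gave it a quality weight of 0.379, and Con+Veh replicate 1 had the lowest weight at 0.275. Con+Veh replicates 3 and 4 had the highest weights, at 3.05 and 1.81. The libraries of a group therefore did not weigh equally on its fitted mean. Disc markers were present, with aggrecan (*Acan*) at group means of 521 to 6638 CPM (counts-per-million) and the notochord factor *T* at 34.4 to 168 CPM. Skeletal muscle RNA was present too, with *Acta1* at 1522 to 4548 CPM, while the keratinocyte genes *Krt5* and *Krt14* stayed below 1 CPM on average in all 4 groups. In such pooled tissue, fewer cells of a type and less RNA per cell cannot be told apart.

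*Glis1* lies at chr4:107434591-107635061 on the plus strand (GRCm38), *Gli2* at chr1:118834132-119053619 on the minus strand and *Smo* at chr6:29735503-29761365 on the plus strand. The other members are on 5 further chromosomes, namely 8 (*Hhip*), 10 (*Gli1*), 13 (*Gli3* and *Ptch1*), 16 (*Glis2*) and 19 (*Glis3*). The bases before the annotated start are shown for *Glis1*, *Gli2* and *Smo*, since these genes had the lower levels described further on and a RefSeq promoter window (GRCm38.p6). Capitals mark the GC box GGGCGG or its reverse complement CCGCCC, and each sequence is read 5′ to 3′ on the strand of its gene, from chr4:107434469-107434590, chr1:119053620-119053869 and chr6:29735247-29735496.

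Glis1: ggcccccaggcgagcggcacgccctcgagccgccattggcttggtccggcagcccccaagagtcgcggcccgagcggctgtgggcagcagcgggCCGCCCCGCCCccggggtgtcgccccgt

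Gli2: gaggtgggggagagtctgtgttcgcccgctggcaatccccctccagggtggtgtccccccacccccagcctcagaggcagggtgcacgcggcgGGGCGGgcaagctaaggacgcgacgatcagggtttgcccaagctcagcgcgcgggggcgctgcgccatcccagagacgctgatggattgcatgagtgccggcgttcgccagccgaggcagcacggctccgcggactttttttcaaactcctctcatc

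Smo: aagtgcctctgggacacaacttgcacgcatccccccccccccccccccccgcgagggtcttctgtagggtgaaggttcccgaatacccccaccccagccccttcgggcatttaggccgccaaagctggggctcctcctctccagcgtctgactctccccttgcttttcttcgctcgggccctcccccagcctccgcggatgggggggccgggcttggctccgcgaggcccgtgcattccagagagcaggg

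A GC box was found in the windows of 35.7% of 32851 mouse promoters (250 bases before to 50 bases after the start, both strands). The *Glis1* window held 2 matches, which overlap by 1 base, the *Gli2* window held 1 and the *Smo* window none. The *Glis1* window was 81.3% G and C against a median of 52.7% over all windows. The Gli-binding consensus GACCACCCA or its reverse complement TGGGTGGTC was in none of the 7 member windows that were available and in 0.253% of all windows.

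The members differed in level. Per kilobase of exon, *Gli2* led in db/+ discs at 19.5 ± 6.92 CPM per kb (mean ± SD, *n* = 3), followed by *Ptch1* at 15.6 ± 4.65, *Smo* at 15.6 ± 2.93, *Glis2* at 12.9 ± 2.96 and *Glis1* at 11.1 ± 2.51. The ranges of neighbours overlapped along this upper part of the order, and a gap then separated *Glis1* from *Gli3* at 4.95 ± 1.10 CPM per kb. At the bottom, *Glis3* (1.65 ± 0.291) and *Hhip* (1.64 ± 0.540) could not be ordered. In db/db discs *Glis1* stood at 4.61 ± 1.05 CPM per kb, beside *Gli3* at 5.53 ± 0.176 and clear of *Glis2* at 13.3 ± 1.85. In Con+Veh discs *Glis2* had the highest mean (10.9 ± 3.24 CPM per kb, *n* = 4), and the ranges of neighbours overlapped from *Glis2* down to *Ptch1* (5.52 ± 0.288). In STZ-HFD discs *Glis2* again had the highest mean (4.82 ± 1.77 CPM per kb), *Glis1* stood seventh (1.51 ± 0.581), and *Hhip* was lowest in both groups, at 0.313 ± 0.139 in Con+Veh and 0.350 ± 0.271 in STZ-HFD.

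**Figure D1:**
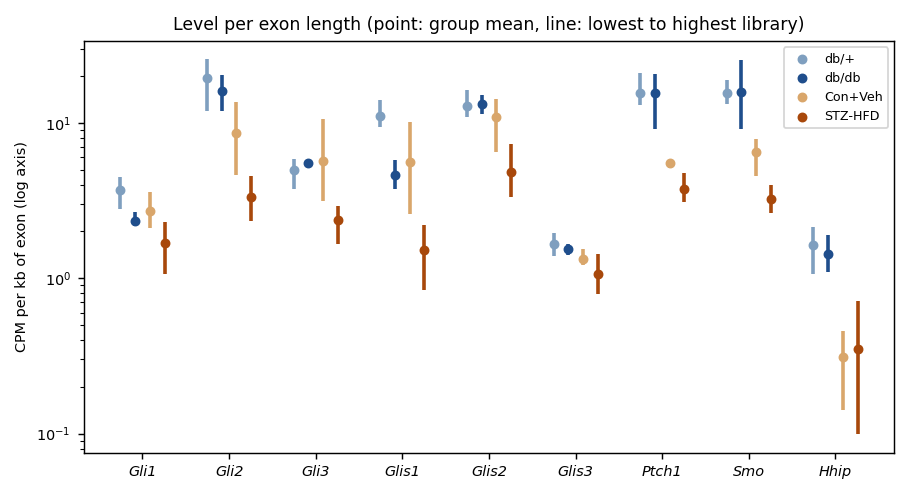
CPM per kilobase of exon on a log axis for the 9 genes, with a point for the mean of each group and a line from its lowest to its highest library. The STZ-HFD line of *Glis1* (0.835 to 2.21) lies below its other 3 lines, and the *Hhip* lines of Con+Veh and STZ-HFD lie below those of db/+ and db/db.

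Between cohorts, the levels of *Ptch1*, *Smo* and *Hhip* separated. Both *db* groups were above both C57BL/6J groups for each of these genes in every library, and the mean of db/+ over that of Con+Veh was 2.83 for *Ptch1*, 2.38 for *Smo* and 5.25 for *Hhip*. For the other 6 genes the ranges of db/+ and Con+Veh overlapped. The share of all genes that separate in this way was not counted, so the separation is not shown to be particular to these genes. Other genes differed between the cohorts too. The summed level of the chondrocyte and end-plate markers was 13470 to 23430 CPM in db/+ and 1424 to 3392 CPM in Con+Veh.

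Across the STZ-HFD comparison, all 9 genes had a fitted log2 fold change below 0, as did 52.8% of all genes, with a median of -0.91 against -0.04 over the 16915 genes tested. *Gli2*, *Glis1*, *Glis2* and *Smo*, 4 of the 9, were called lower (adjusted *P* under 0.05 and at least a 2-fold change, limma with Benjamini-Hochberg adjustment), where 1.31% of all genes were. With *Gli3*, 5 members passed the adjusted *P* at any fold, against 1.8% of all genes, and 5 had STZ-HFD libraries wholly below the Con+Veh libraries, against 2.77% of all genes. In the db/db comparison only *Glis1* was called lower, where 0.432% of all genes were (0.508% at any fold). *Gli1* and *Glis1* had db/db libraries wholly below the db/+ libraries, against 11.7% of all genes, and the median over the 9 members was -0.07.

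**Figure D2:**
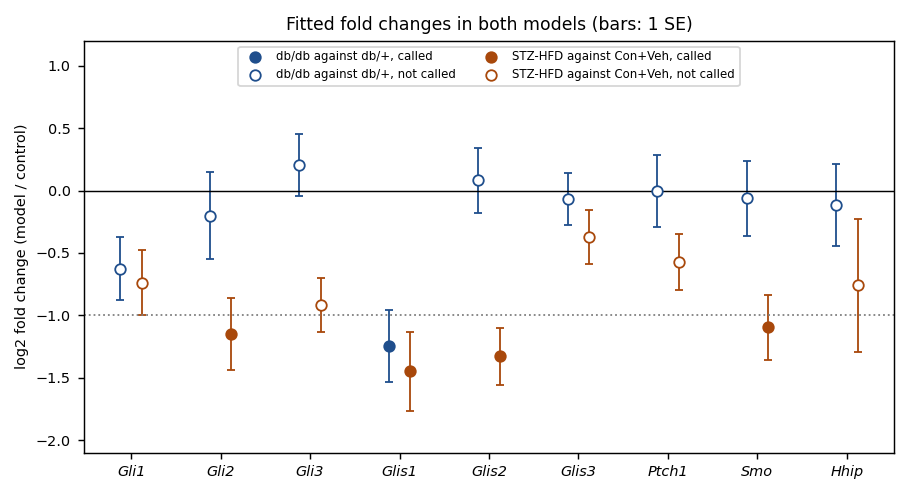
Fitted log2 fold change (limma) of each gene in db/db against db/+ (blue) and STZ-HFD against Con+Veh (brown), with bars of 1 standard error; filled points were called and the dotted line marks -1. The brown points run from -1.45 (*Glis1*) to -0.37 (*Glis3*), whereas blue points other than *Glis1* and *Gli1* lie between -0.20 and 0.21.

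*Glis1* encodes a Krüppel-like zinc finger factor that can act as an activator or a repressor. Its level was 35.9, 34.5 and 51.0 CPM in the db/+ libraries and 13.6, 15.7 and 21.04 CPM in the db/db libraries. The highest db/db library was thus below the lowest db/+ library, and the mean of db/db was 0.415 of that of db/+. The log2 fold change was -1.24 ± 0.29 (SE; adjusted *P* = 0.0369). In Con+Veh it was at 36.9, 9.50, 14.1 and 21.02 CPM and in STZ-HFD at 3.04, 6.12, 4.81 and 8.06 CPM. Con+Veh replicate 1 was high and the other controls spread over a wide range, yet every STZ-HFD library was below every control. Here the mean ratio was 0.271 and the log2 fold change -1.45 ± 0.32 (adjusted *P* = 0.0209). The difference of the 2 fold changes was -0.21 ± 0.43 (adjusted *P* = 0.859).

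The call of *Glis1* in db/db depended on the settings. The edgeR quasi-likelihood test gave -1.27 with an adjusted *P* of 0.282 and DESeq2 gave -1.25 with 0.135. Leaving out any of the 6 *db* libraries ended it as well, with log2 fold changes of -1.42 to -1.09 and the lowest adjusted *P* of 0.0616 without db/db replicate 3. *Glis1* had the highest exon GC content of the 9 genes (62.6%), and removing each library's GC trend gave -0.76 with an adjusted *P* of 0.169. In STZ-HFD the GC-corrected value was -1.34 (adjusted *P* = 0.0185), DESeq2 gave -1.88 (0.000479) and edgeR -1.88 (0.0579). Transcript estimates assigned 99.1% of the listed *Glis1* counts to a single protein-coding transcript, which held 250, 333 and 416 estimated counts in db/db and 532, 609 and 1009 in db/+.

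**Figure D3:**
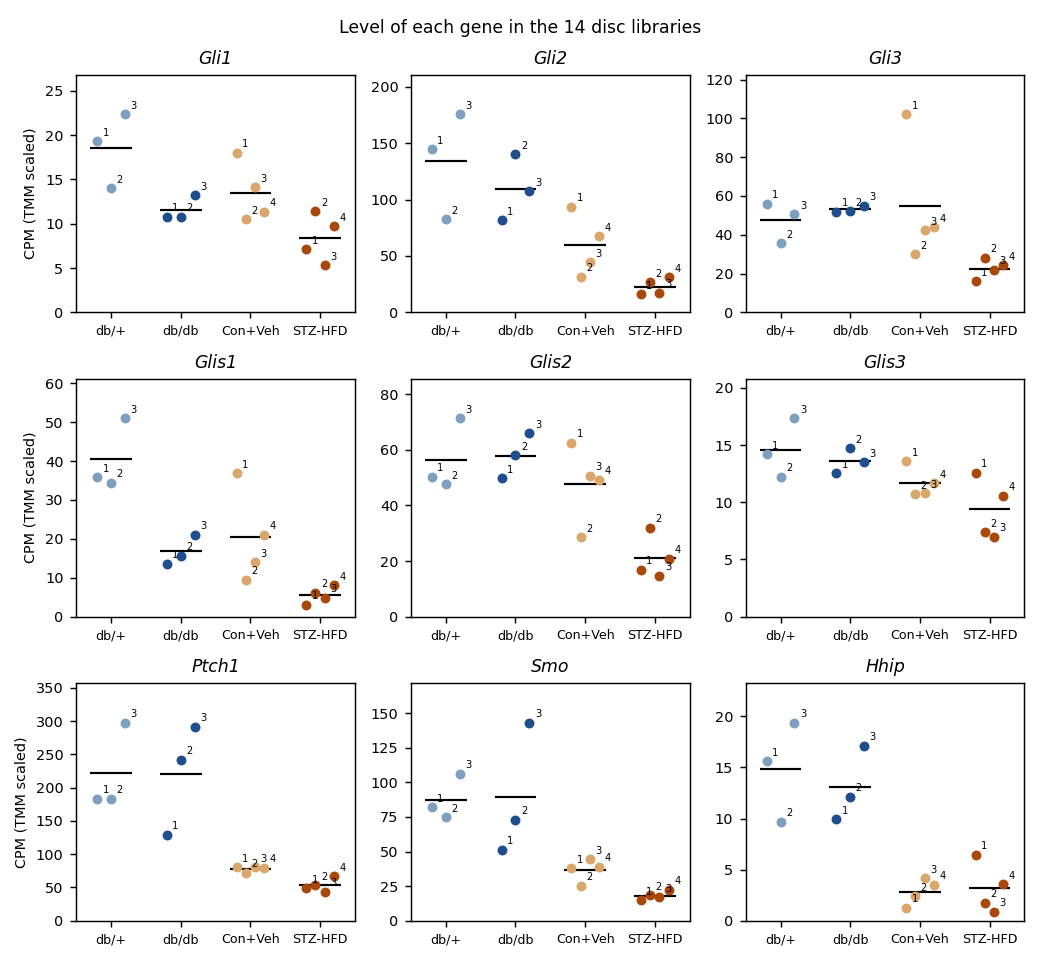
CPM of the 9 genes in each library (points, numbered by replicate) with the group mean as a line, on linear axes that start at 0. *Glis1* separates the groups in both comparisons, while *Gli2*, *Gli3*, *Ptch1* and *Smo* separate STZ-HFD from Con+Veh and overlap between db/db and db/+.

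*Glis2*, whose product restrains fibrosis-associated genes in the kidney and localizes partly to the cilium, was found at 62.6, 28.5, 50.8 and 49.2 CPM in Con+Veh and at 16.8, 32.01, 14.7 and 20.9 CPM in STZ-HFD. STZ-HFD replicate 2 reached above Con+Veh replicate 2, so the ranges overlapped, while the other 3 STZ-HFD libraries lay below all controls. The log2 fold change was -1.33 ± 0.23 (adjusted *P* = 0.00699), the smallest adjusted *P* among the 9 genes. No such shift was seen in db/db, with 49.8, 58.1 and 66.03 CPM against 50.4, 47.7 and 71.3 CPM in db/+ (log2 fold change 0.08 ± 0.26, adjusted *P* = 0.894). *Glis2* was the sole member whose fold changes differed between the models by the interaction term (-1.41 ± 0.35, adjusted *P* = 0.0469), a contrast in which 1.77% of all genes were called. That call ended under edgeR (adjusted *P* = 0.302) and DESeq2 (0.162), and with 9 of the 14 libraries left out in turn.

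*Glis3*, which is needed for pancreatic β-cell and thyroid development, had the fold change nearest 0 of the 9 genes in STZ-HFD and was not called in either model. Its level was 13.6, 10.7, 10.8 and 11.7 CPM in Con+Veh and 12.6, 7.36, 6.99 and 10.6 CPM in STZ-HFD, where replicate 1 was the highest. The fitted change was -0.37 ± 0.22 (adjusted *P* = 0.395) there and -0.07 ± 0.21 in db/db (0.888). In STZ-HFD replicate 1, transcript estimates placed 7.84% of the *Glis3* counts on the analysed transcripts. The share was 24.8% to 34.2% in the remaining STZ-HFD and Con+Veh libraries. Without both Con+Veh replicate 1 and STZ-HFD replicate 1 the STZ-HFD change was -0.43 (adjusted *P* = 0.316).

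Among the Gli factors, *Gli2* alone was called, and in STZ-HFD only. It was at 93.7, 31.7, 44.5 and 67.4 CPM in Con+Veh and at 16.1, 26.6, 17.5 and 31.1 CPM in STZ-HFD, a log2 fold change of -1.15 ± 0.29 (adjusted *P* = 0.0358). The groups did not overlap, but the highest STZ-HFD library and the lowest control were within 1 CPM of each other. In db/db *Gli2* was at 81.8, 140.2 and 107 CPM against 145, 82.4 and 176 CPM in db/+ (-0.20 ± 0.35, adjusted *P* = 0.780).

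*Gli3* had a high control, at 102 CPM in Con+Veh replicate 1 against 29.9, 42.5 and 44.1 CPM in the other controls, and was at 15.9, 28.1, 22.0 and 24.3 CPM in STZ-HFD. Its log2 fold change of -0.91 ± 0.22 (adjusted *P* = 0.0284) missed the minimum of 1 for a call. Without both Con+Veh replicate 1 and STZ-HFD replicate 1 it was -0.81 (adjusted *P* = 0.0304). In db/db, the values of 52.0, 52.2 and 55.0 CPM fell within the db/+ range of 35.8 to 56.1 CPM.

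*Gli1*, a direct transcriptional readout of the pathway in many tissues, was lower on average in both models without being called. The db/db libraries were at 10.8, 10.8 and 13.2 CPM against 19.3, 13.98 and 22.4 CPM in db/+, which did not overlap (-0.63 ± 0.25, adjusted *P* = 0.166). In STZ-HFD it was at 7.11, 11.4, 5.34 and 9.75 CPM against 18.0, 10.5, 14.1 and 11.4 CPM in Con+Veh, which did (-0.74 ± 0.26, adjusted *P* = 0.132). With each library's GC trend removed, the *Gli1* change was -0.21 in db/db (adjusted *P* = 0.726) and -0.64 in STZ-HFD (0.175).

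Of the membrane proteins, *Smo* was called lower in STZ-HFD. It was at 37.8, 25.5, 44.6 and 39.2 CPM in Con+Veh and at 14.7, 18.6, 17.0 and 22.3 CPM in STZ-HFD, with no overlap and a log2 fold change of -1.10 ± 0.26 (adjusted *P* = 0.0282). In db/db it ranged widely, from 51.2 and 73.0 to 143 CPM, around the db/+ values of 81.9, 74.7 and 106 CPM (-0.06 ± 0.30, adjusted *P* = 0.931).

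*Ptch1*, the receptor and a transcriptional target, was tight among controls at 80.9, 72.2, 80.3 and 79.7 CPM. All 4 STZ-HFD libraries lay lower, at 48.5, 53.4, 43.6 and 67.0 CPM, but the change of -0.57 ± 0.22 was not called (adjusted *P* = 0.176). In db/db, 129, 242 and 292 CPM overlapped the db/+ values of 183, 184 and 298 CPM (-0.0023 ± 0.29 on the log2 scale, adjusted *P* = 0.997).

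*Hhip* encodes a decoy that binds Hedgehog ligands at the cell surface. It had few counts in the C57BL/6J cohort, between 29 and 157 per library, and its direction was not settled. Levels were 1.28, 2.41, 4.14 and 3.53 CPM in Con+Veh and 6.45, 1.75, 0.901 and 3.60 CPM in STZ-HFD, so that the plain mean ratio was 1.12 while the weighted fit gave -0.76 ± 0.53 (adjusted *P* = 0.496). STZ-HFD replicate 1 was the highest of the 8 libraries, and transcript estimates placed only 9.55% of its 157 *Hhip* counts on the annotated transcripts, against 24.6% to 38.8% in the other 7. In db/db, *Hhip* was at 9.96, 12.1 and 17.1 CPM against 15.6, 9.67 and 19.4 CPM in db/+ (-0.12 ± 0.33, adjusted *P* = 0.873).

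The STZ-HFD calls of *Gli2*, *Glis1*, *Glis2* and *Smo* depended on single libraries and on the test. The edgeR quasi-likelihood test called 0 of the 9 genes, with 6 at an unadjusted *P* under 0.05 and adjusted *P* values of 0.143, 0.0579, 0.116 and 0.194 for these 4 genes, whereas DESeq2 called 4 (*Gli2*, *Gli3*, *Glis1* and *Glis2*). Without Con+Veh replicate 3, Con+Veh replicate 4 or STZ-HFD replicate 3 the count was 0, without STZ-HFD replicate 4 it was 1 (*Glis2*), without STZ-HFD replicate 2 it was 3, and it stayed at 4 without STZ-HFD replicate 1 or Con+Veh replicates 1 or 2. Every one of the 27 alternative fits kept these 4 log2 fold changes below 0, from -2.05 to -0.91.

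Markers of some cell types also differed between STZ-HFD and Con+Veh. Of all 16915 genes tested, 220 were called higher and 221 lower in STZ-HFD, and 208 higher and 73 lower in db/db. The summed level of 8 chondrocyte and end-plate genes was 1424 to 3392 CPM in Con+Veh and 631 to 1339 CPM in STZ-HFD, and 5 of the 8 were called lower. Of 7 annulus fibrosus and tendon genes 2 were called lower (1697 to 3419 CPM and 955 to 3178 CPM), as were 2 of 6 osteoblast genes (100.0 to 345 CPM and 80.5 to 234 CPM) and 2 of 6 macrophage genes (90.0 to 206 CPM and 65.3 to 130.2 CPM). Among 8 skeletal muscle genes 3 were called higher (6712 to 8714 CPM and 6616 to 18490 CPM), and 1 of 7 adipocyte genes was (419.6 to 918 CPM and 933 to 1062 CPM). The 7 tested notochord and nucleus pulposus genes had no call, and their sum spanned 2016 to 5795 CPM and 3561 to 7820 CPM. *Car3* had by far the highest mean of them (3031 CPM in Con+Veh and 5230 CPM in STZ-HFD), so the sum mostly follows that gene. *Krt18* also had a higher mean in STZ-HFD, while *T* (168 and 117 CPM), *Krt8*, *Krt19*, *Cd24a* and *Cdh2* had lower means. The part of these lists in the lower levels of *Gli2*, *Glis1*, *Glis2* and *Smo* was not tested. In db/db, chondrocyte and end-plate markers spanned 5456 to 13980 CPM against 13470 to 23430 CPM in db/+ with no call, osteoblast markers spanned 655 to 879.7 CPM against 1149 to 1773 CPM, without overlap and with no call, 1 muscle gene was called lower, and 3 adipocyte genes and 1 endothelial gene were called higher. The notochord and nucleus pulposus genes had no call in db/db, where their sum spanned 1003 to 1303 CPM against 662.5 to 4484 CPM in db/+. Means were lower in db/db for *T* (34.4 against 158 CPM), *Krt8*, *Krt18*, *Krt19*, *Car3* (901 against 1860 CPM) and *Cdh2*. The mean of *Cd24a* was higher (192 against 172 CPM). Osteoclast, erythroid, neutrophil, Schwann cell and keratinocyte lists had no call in either comparison. The part of these lists in the lower *Glis1* was not tested either.

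**Figure D4:**
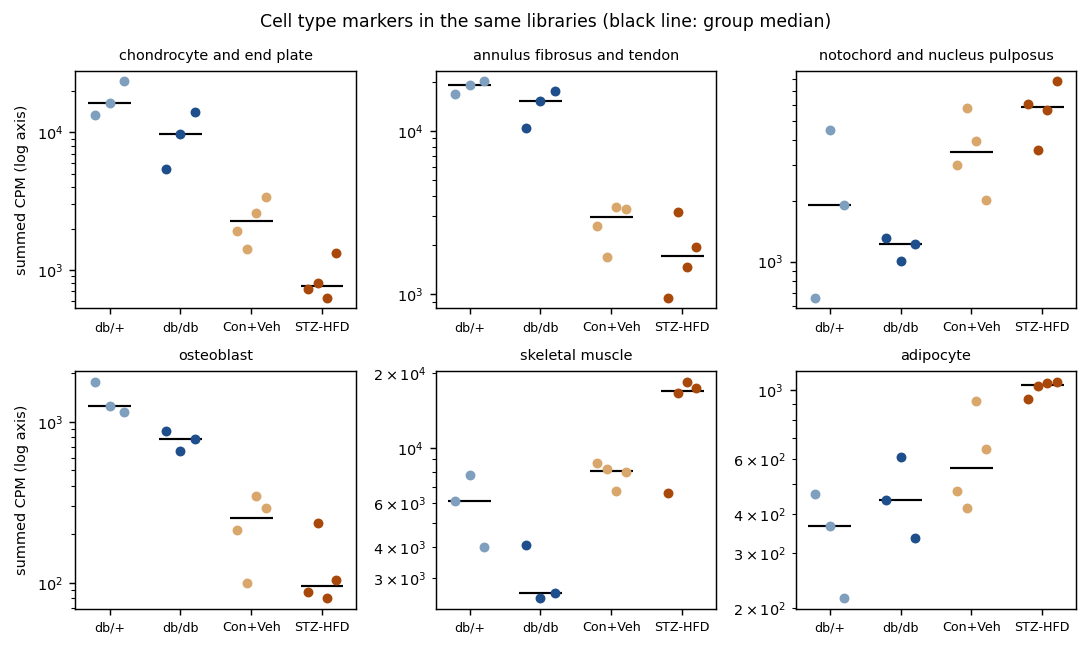
Summed CPM of 6 marker lists in each library (points) with the group median as a line, on log axes. The chondrocyte and end-plate sums of STZ-HFD (631 to 1339 CPM) lie below those of Con+Veh (1424 to 3392 CPM), and 3 of the 4 STZ-HFD muscle sums lie above all others.

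Of 74 other genes of the pathway, 68 could be tested. In STZ-HFD 5 were called lower, where 1.31% of all genes were, and 0 higher, where 220 of all 16915 were. There, 44 of the 68 had a fold change below 0 (median -0.19), where 52.8% of all genes did. In db/db 1 was called lower, where 0.432% of all genes were, and 0 higher, where 208 of all 16915 were. Here 39 of the 68 were below 0 (median -0.15), where 52.7% of all genes were. This list, too, was set with earlier results in view.

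Of the ligand genes, *Shh* was not tested, with at most 4 counts in any library other than STZ-HFD replicate 1, where it had 58. *Ihh*, the cartilage ligand, was at 10.4, 9.79 and 16.8 CPM in db/+ and 7.08, 5.54 and 7.10 CPM in db/db, which did not overlap (-0.85 ± 0.25, adjusted *P* = 0.0752), and at 2.02 to 4.21 CPM in Con+Veh and 1.32 to 3.82 CPM in STZ-HFD (-0.59 ± 0.39, adjusted *P* = 0.456). Of all genes, 11.7% likewise had db/db libraries wholly below the db/+ libraries. With each library's GC trend removed, the *Ihh* change was -0.38 in db/db (adjusted *P* = 0.448) and -0.46 in STZ-HFD (0.563). *Dhh* varied among replicates of every group, from 0.0543 to 5.03 CPM among controls of the STZ-HFD model, and had fold changes of 0.06 in both.

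*Scube2*, whose product helps release lipid-modified Hedgehog from the producing cell, was the called gene in db/db. It was at 8.55, 8.59 and 8.69 CPM in db/+ and 5.19, 3.52 and 4.21 CPM in db/db (-1.03 ± 0.24, adjusted *P* = 0.0382). That call ended under edgeR (adjusted *P* = 0.233), under DESeq2 (0.0683) and with any of the 6 *db* libraries left out. In STZ-HFD the sign was the opposite, with 11.6, 7.98, 12.1 and 9.57 CPM against 5.52, 8.08, 4.42 and 6.79 CPM in Con+Veh (0.91 ± 0.24, adjusted *P* = 0.0477, below the fold minimum), and the difference of the fold changes was 1.93 ± 0.34 (adjusted *P* = 0.0176). Of the other 4 release genes tested, *Scube1* was lowest in STZ-HFD (-0.80 ± 0.31, adjusted *P* = 0.178) and *Hhat*, which adds palmitate to the ligand, moved least in db/db (-0.22 ± 0.31). Under edgeR the adjusted *P* of the *Scube2* difference was 0.137 and under DESeq2 0.00604.

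Both Hedgehog co-receptors of the *Cdon* and *Boc* pair were called lower in STZ-HFD. *Cdon* was at 96.9 to 111 CPM in Con+Veh and at 48.7, 42.6, 35.2 and 71.4 CPM in STZ-HFD (-1.07 ± 0.23, adjusted *P* = 0.0209), with no overlap. *Boc* was at 62.3, 28.9, 62.0 and 65.5 CPM in Con+Veh and 10.4, 45.4, 26.6 and 27.9 CPM in STZ-HFD (-1.12 ± 0.26, adjusted *P* = 0.0285), where Con+Veh replicate 2 overlapped the diabetic range. In db/db the changes were -0.76 ± 0.29 for *Cdon* (adjusted *P* = 0.155) and -0.63 ± 0.31 for *Boc* (0.255). The extremes of the receptor list that were not called were *Lrp2* (-1.72 ± 1.32) and *Gpc3* (0.39 ± 0.51) in STZ-HFD and *Gas1*, a co-receptor, in db/db (0.57 ± 0.37).

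None of 20 regulators of Smoothened and Gli proteins was called in either comparison. *Sufu*, which holds Gli proteins in the cytoplasm, had changes of -0.40 ± 0.28 in STZ-HFD and -0.32 ± 0.26 in db/db, and *Kif7*, a ciliary kinesin, -0.14 ± 0.52 and -0.84 ± 0.50. *Prkacb*, a catalytic subunit of protein kinase A, which phosphorylates Gli proteins, passed the adjusted *P* in db/db but not the fold minimum (0.81 ± 0.19, adjusted *P* = 0.0377). In STZ-HFD the regulators ran from *Efcab7* (-1.71 ± 0.85) to *Cul3* (0.49 ± 0.33). The 19 genes of ciliary transport had no call, with medians of -0.16 in STZ-HFD and -0.05 in db/db. *Mks1* was lowest in both (-0.58 ± 0.37 and -0.74 ± 0.32), and *Ift140* (0.23 ± 0.24) and *Rpgrip1l* (0.31 ± 0.32) were highest. Nor was any of the 4 tested *Zic* genes called, of which *Zic1* was highest in STZ-HFD (-0.15 ± 0.24) and *Zic4* in db/db (1.32 ± 0.85).

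Known targets of the pathway held 3 of the 5 calls in STZ-HFD. These were 3 of the 12 targets tested, where 1.31% of all genes were called lower. *Pax1*, a sclerotome factor, was at 21.2, 24.6, 40.6 and 44.0 CPM in Con+Veh and 11.2, 7.74, 9.88 and 12.8 CPM in STZ-HFD (-1.86 ± 0.37, adjusted *P* = 0.0134). Its paralog *Pax9* was at 26.6, 18.8, 28.9 and 36.8 CPM and 10.7, 5.47, 10.5 and 13.97 CPM (-1.50 ± 0.28, adjusted *P* = 0.0101). For both, every STZ-HFD library was below every control, while in db/db the changes were 0.38 ± 0.41 and 0.24 ± 0.29 and the difference between models was called (-2.24 ± 0.55, adjusted *P* = 0.0459, and -1.74 ± 0.40, 0.0386). Each of these differences lost its call with 9 of the 14 libraries left out in turn. Without db/db replicate 3, the db/db changes of *Pax1* and *Pax9* were -0.20 and -0.0465. *Ccnd1*, encoding the cell-cycle regulator cyclin D1, was at 55.8, 27.1, 46.5 and 36.0 CPM in Con+Veh and 12.7, 32.3, 15.2 and 22.1 CPM in STZ-HFD (-1.08 ± 0.25, adjusted *P* = 0.0270). In all, 11 of the 12 tested targets had a fold change below 0 in STZ-HFD (median -0.96), where 52.8% of all genes did. In db/db 7 of the 12 did (median -0.17), where 52.7% of all genes did. The lowest in db/db was *Nkx3-2* (-1.65 ± 0.49, adjusted *P* = 0.0776) and the highest *Nr2f2* (0.74 ± 0.28, 0.148). *Pthlh* was the target not below 0 in STZ-HFD (0.0015 ± 0.31). With edgeR none of the 5 genes called in STZ-HFD kept its call (12 of the 68 at an unadjusted *P* under 0.05), whereas DESeq2 kept *Cdon*, *Pax1* and *Pax9*. Leaving out Con+Veh replicate 3, Con+Veh replicate 4 or STZ-HFD replicate 3 ended all 5 calls.

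**Figure D5:**
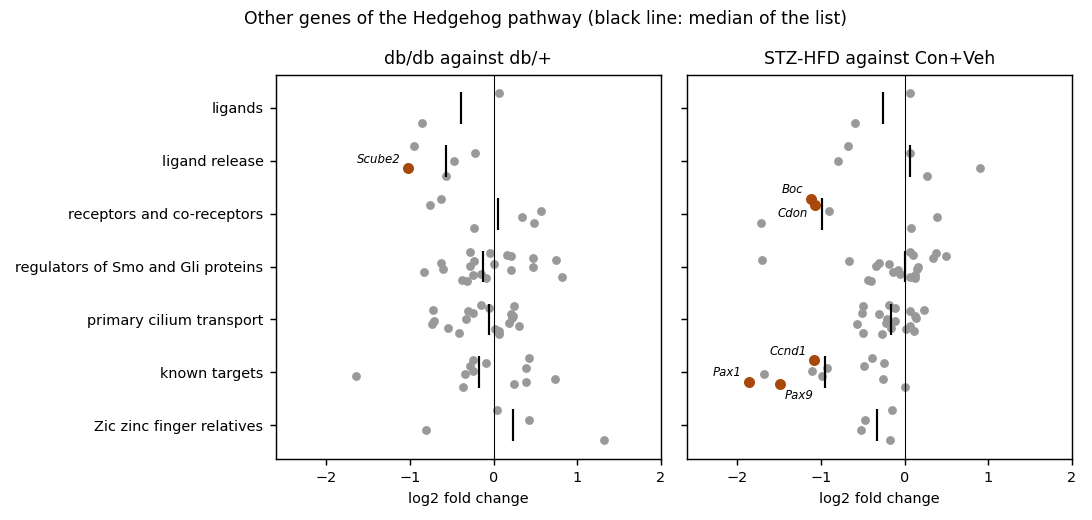
Log2 fold change of the 68 other pathway genes by functional list in db/db against db/+ and in STZ-HFD against Con+Veh; coloured and named points were called, grey points were not, and black lines are list medians. The receptor and target lists have medians of -0.99 and -0.96 in STZ-HFD and of 0.06 and -0.17 in db/db.

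Profiles most like that of *Glis1* were sought as the smallest root mean square difference between gene-centred log2 CPM over the 14 libraries, with a median of 1.33 over all genes. The 5 nearest were *1810055G02Rik* (0.28), *Trpv4* (0.32), *Sdk2* (0.35), *Loxl3* (0.36) and *Foxp4* (0.41). *Trpv4* encodes a calcium channel gated by osmotic and mechanical stimuli and *Loxl3* an enzyme that cross-links collagen. *Gli2* came sixth (0.49), and the other members ranked from 72nd (*Glis2*) to 7956th (*Hhip*). *Loxl3* was called lower in db/db (-1.18 ± 0.27, adjusted *P* = 0.0346) and in STZ-HFD (-1.18 ± 0.25, 0.0196), *1810055G02Rik* (-1.51), *Sdk2* (-1.82) and *Foxp4* (-1.25) in STZ-HFD alone, and *Trpv4* in neither. These genes were picked for their likeness over the same libraries, so their calls are a description. The measure includes the offset in level between the cohorts.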

How the data were processed

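Per the labels and the submitters' processing notes, total RNA was amplified with the SeqPlex kit and sequenced, and reads were aligned with STAR to GRCm38 with Ensembl release 101 genes. The authors counted reads per gene with featureCounts, and these raw counts were deposited without normalization. The authors also deposited estimated counts per transcript from Salmon, which were summed per gene and rounded where used as gene totals. The strand setting is not given in the sources used here.

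The gene table held 55774 lines. Of these, 287 repeated an identifier with the same counts and were dropped, which left 55487 genes. Genes above 1 CPM in at least 3 of the 14 libraries (16915) were scaled by TMM (edgeR 4.0.16) and fitted with voomWithQualityWeights in limma 3.58.1 (R 4.3.3), with 4 group means. A gene was called where its Benjamini-Hochberg adjusted *P* was below 0.05 and its log2 fold change 1 or more in either direction. CPM values are TMM-scaled, and levels per kb used exon lengths of GENCODE M21. Each library had 8945906 to 35031712 counts outside rRNA genes. The script was tested on simulated data. Alternatives included the edgeR quasi-likelihood test, DESeq2 1.42.0, other filters, a GC correction in 20 bins, transcript totals, a replicate block and leaving out each library.

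The members and gene lists were chosen with earlier results of these data known. Named were all members, the core pathway genes *Shh*, *Ihh*, *Dhh*, *Sufu* and *Kif7*, pathway genes called in either comparison, the extremes of each list and the 5 genes most like *Glis1* (prior count 2). Some items that this rule names are not reported here. Marker genes were named within their lists, and the GC box search was added after the files were seen. The first-numbered transcripts of *Gli2*, *Glis2*, *Glis3* and *Ptch1* were not analysed here, so that transcript totals of these genes leave them out, and of the promoter windows those of *Gli1* and *Glis2* were not. Replicate libraries differed by more than sampling noise (chi-square per degree of freedom 54.8 to 578).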

Additional observations from a re-analysis of the deposited data

Results flagged for a closer look

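In 3 gene and group pairs a library lay apart from the other 3 of its group by more than Dixon's 95% limit, of 40 pairs looked at, where chance gives about 1 in 20. For *Ptch1* in Con+Veh, replicate 2 (72.2 CPM) was below the others (79.7 to 80.9 CPM), and the gap was 0.869 of the group's range. For *Boc* in Con+Veh, replicate 2 (28.9 CPM) was below the others (62.0 to 65.5 CPM), with a gap of 0.905 of the range. For *Prkacb* in Con+Veh the gap was 0.849 of the range.

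Of all genes tested, 1.77% were called for the difference between the models by the interaction term (limma, adjusted over all genes). Among the 9 members and the 68 other pathway genes tested, the fold changes of 4 differed in this way. These differences, STZ-HFD minus db/db on the log2 scale, were -1.41 for *Glis2* (adjusted *P* = 0.0469), -2.24 for *Pax1* (0.0459), -1.74 for *Pax9* (0.0386) and 1.93 for *Scube2* (0.0176). DESeq2 kept the last 3 and edgeR none. With the 14 libraries left out in turn, the calls of *Glis2*, *Pax1* and *Pax9* each ended in 9 fits and that of *Scube2* in 3. The models differ in age, genotype and treatment, which cannot be told apart here.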

How the results depend on the processing

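The counts of genes called depended on the test, the weights and single libraries. Over all genes, 281 were called in db/db, 441 in STZ-HFD and 299 for the difference between models. edgeR called 0, 29 and 5 (1891, 2136 and 1991 at an unadjusted *P* under 0.05), voom without weights 9, 19 and 3, and transcript totals 144, 56 and 62. DESeq2 called 272 in STZ-HFD. Fitting each model alone gave 436 in db/db and 287 in STZ-HFD, and it gives no difference between models. No filter gave 534 and 130, filterByExpr gave 217 in STZ-HFD and 154 for the difference, and the GC correction 149 in db/db and 112 for the difference. Leaving out Con+Veh replicate 2 with STZ-HFD replicate 4, whose library names share an ending, gave 244 in STZ-HFD and 114 for the difference. Leaving out Con+Veh replicate 1 with STZ-HFD replicate 1, a setting chosen after seeing the data, gave 502 for the difference. Leaving out a library at a time gave 21 to 392 in db/db, 17 to 642 in STZ-HFD and 4 to 423 for the difference.

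Of the 9 Hedgehog and Glis genes, 4 were called in STZ-HFD. The count was 2 with filterByExpr and 0 with edgeR, transcript totals, no filter or no weights. In db/db the 1 call was lost (0) with DESeq2, edgeR, no weights, transcript totals or the GC correction. For the difference the 1 call was lost (0) with DESeq2, edgeR, filterByExpr, no filter, no weights, transcript totals, rRNA genes removed, or Con+Veh replicate 2 and STZ-HFD replicate 4 left out. Leave-outs gave 0 to 1 in db/db, 0 to 4 in STZ-HFD and 0 to 1 for the difference. Of the 68 other pathway genes, the 5 calls in STZ-HFD became 3 with DESeq2, filterByExpr, separate fits or the shared-ending libraries left out, and 0 with edgeR, transcript totals, no filter or no weights. The 1 call in db/db became 0 with those 4 settings or DESeq2, and also with filterByExpr, the GC correction, rRNA genes removed, or Con+Veh replicate 1 and STZ-HFD replicate 1 left out, with the exception that it became 2 with no minimum on the fold. The 3 calls for the difference became 1 with filterByExpr or no filter, and 0 with edgeR, transcript totals or no weights. Leave-outs gave 0 to 1, 0 to 5 and 0 to 3. The causes of these shifts were not tested.

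Whether the replicate numbers pair the libraries was not settled. For same-numbered libraries the mean correlation of deviations was -0.09 in the *db* cohort and -0.11 in the other. Single same-numbered pairs ran from -0.28 to 0.19 in the *db* cohort and from -0.26 to -0.04 in the other. The deviations were taken from group means, so the mean values for other pairs (0.05 and 0.04) are not independent of these. With the replicate block, 618 genes were called in db/db, 38 in STZ-HFD and 72 for the difference, with 0 of the 9 genes in STZ-HFD and 0 for the difference, and 2 other pathway genes in STZ-HFD. In db/db the block called *Nkx3-2* in place of *Scube2* (-0.95).

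These log2 fold changes changed sign, none of them called in the fit as reported, and the cause was not tested. In STZ-HFD, *Dhh* was at -0.0193 with the replicate block and -0.42 with Con+Veh replicate 1 and STZ-HFD replicate 1 left out, and -0.41 to 1.39 over the leave-outs. *Hhip* was at 0.20 with DESeq2, 0.17 with edgeR and 0.0027 with no quality weights. *Kif7* was at 0.0741 with DESeq2, 0.0352 with the GC correction, 0.0622 with edgeR, 0.0227 with transcript totals and 0.0607 with no quality weights, and -0.33 to 0.27 over the leave-outs. *Prkacb* was at -0.0414 with DESeq2, -0.0059 with the GC correction, -0.0572 with edgeR and -0.0473 with no quality weights, and -0.0362 to 0.12 over the leave-outs. *Sufu* was at 0.56 with transcript totals. In db/db, *Dhh* was at -0.047 with DESeq2, -0.0747 with edgeR, -0.19 with transcript totals, -0.0468 with no filter and -0.20 with the replicate block, and -0.51 to 0.84 over the leave-outs. *Gli2* was at 0.21 with the GC correction and 0.0605 with transcript totals. *Gli3* was at -0.0072 to 0.34 over the leave-outs. *Glis2* was at -0.0556 to 0.24 over the leave-outs. *Glis3* was at 0.0642 with transcript totals, and -0.21 to 0.0456 over the leave-outs. *Hhip* was at 0.0923 with transcript totals, and -0.45 to 0.0684 over the leave-outs. *Pax1* was at -0.20 to 0.93 over the leave-outs. *Pax9* was at -0.0465 to 0.53 over the leave-outs. *Ptch1* was at 0.0197 with DESeq2, 0.0102 with RLE size factors, 0.0115 with separate fits, 0.0139 with filterByExpr, 0.0377 with no filter and 0.0272 with rRNA genes removed, and -0.25 to 0.34 over the leave-outs. *Smo* was at 0.0504 with DESeq2, 0.38 with the GC correction, 0.0255 with edgeR and 0.10 with transcript totals, and -0.48 to 0.27 over the leave-outs. *Sufu* was at 0.16 with transcript totals. For the difference between models, *Gli1* was at 0.15 with transcript totals, and -0.24 to 0.21 over the leave-outs. *Hhip* was at 0.36 with DESeq2, 0.36 with edgeR and 0.17 with no quality weights, and -1.08 to 0.0324 over the leave-outs. *Ptch1* was at 0.71 with transcript totals. Depth limited *Hhip* in the C57BL/6J cohort (29 to 157 counts per library) and *Shh* (0 to 58 counts).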
